A study of Mus musculus with 384 samples.

Results

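The data described here are the 9 genes that encode the pore-forming alpha-1 subunits of voltage-gated calcium channels and have an entry in the count tables: *Cacna1a*, *Cacna1b*, *Cacna1c*, *Cacna1d*, *Cacna1e*, *Cacna1g*, *Cacna1h*, *Cacna1i* and *Cacna1s*. They were taken by symbol, and all 9 had at least 1 count. Levels were read in the 209 of 384 single cells with total counts of at least 500000. The cells came from 8 mice of strain C57BL6/J, 3 labelled female and 5 labelled male, aged postnatal day 24 to 36. All mice carried DAT-Cre, in which Cre recombinase is expressed from the dopamine transporter gene, and Ai9(RCL-tdT), a reporter that makes the red protein tdTomato in any cell in which Cre is or was active. All groups compared here share these alleles, and the labels name no treatment. Cells were sorted for tdTomato and for exclusion of propidium iodide, a dye that enters dead cells, from a midbrain dissection that included hypothalamus, and each was profiled separately on a Fluidigm C1 chip. Because each chip run held 1 animal, mouse and run cannot be told apart.

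Classes of cells were set by 2 marker genes. A cell was called positive for *Aldh1a7*, an aldehyde dehydrogenase gene, or for *Neurod6*, a transcription factor gene, from 10 counts of that gene. There were 74 *Aldh1a7*-positive and 135 *Aldh1a7*-negative cells, and 49 *Neurod6*-positive and 160 *Neurod6*-negative cells. The cells nearest the threshold held 10 counts of *Aldh1a7* inside it and 9 outside it, and 10 counts of *Neurod6* inside it and 5 outside it. Combining both markers gave 56 cells with *Aldh1a7* only, 18 with both, 31 with *Neurod6* only and 104 with neither. The cells with neither were divided by *Th*, the tyrosine hydroxylase gene of dopamine synthesis, into 76 *Th*-rich cells at 1000 CPM or more (CPM, the counts of a gene scaled to a total of 1000000) and 28 *Th*-poor cells below that level. *Aldh1a7* is nearly identical to *Aldh1a1*, so the division of reads between these 2 genes is uncertain, and so is the class of cells near the threshold.

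Voltage-gated calcium channels open when the membrane is depolarized and let calcium ions into the cell. The alpha-1 subunit forms the pore from 4 homologous repeats and decides the class of current. *Cacna1c* and *Cacna1d* encode the L-type subunits Cav1.2 and Cav1.3, and *Cacna1s* encodes the L-type subunit of skeletal muscle. *Cacna1a*, *Cacna1b* and *Cacna1e* encode the P/Q-, N- and R-type subunits, which are known for transmitter release and for calcium entry into dendrites. *Cacna1g*, *Cacna1h* and *Cacna1i* encode the T-type subunits, which open at more negative potentials. In dopamine neurons, Cav1.3 channels are known for calcium entry during pacemaker firing.

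The members divide into 2 sequence groups at the selectivity filter, the ring of acidic residues that passes calcium. The stretch of 27 bases around the filter codon of the third repeat is shown because it separates the T-type genes from the rest. It was read 5′ to 3′ on the coding strand from GENCODE M21 transcripts (GRCm38), and the capitals mark the filter codon.
Cacna1a: acagtgtccacaggaGAGggctggcca
Cacna1b: acagtgtccacgggaGAGgggtggccc
Cacna1e: acagtctctacagggGAAggatggcct
Cacna1c: accgtctccaccttcGAAgggtggcca
Cacna1d: acagtctcaacttttGAGggctggccc
Cacna1s: acggtctccaccttcGAGggttggcct
Cacna1g: gtgctggcctccaagGATggctgggtt
Cacna1h: gtgctgtcatccaagGATggctgggta
Cacna1i: gtcttggcctccaagGATggctgggtg
The codon spelled glutamate in the 6 P/Q-, N-, R- and L-type genes and aspartate in the 3 T-type genes. Compared with *Cacna1e* base by base, the stretch differed at 6 positions in *Cacna1a*, 7 in *Cacna1b*, and 8 each in *Cacna1c*, *Cacna1d* and *Cacna1s*. The T-type genes differed from *Cacna1e* at 15 positions in *Cacna1g* and *Cacna1h* and 16 in *Cacna1i*. *Cacna1h* and *Cacna1i* each differed from *Cacna1g* at 3 positions.

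The stretches lie in coding exons at chr8:84581323-84581349 on the plus strand for *Cacna1a*, chr2:24651083-24651109 on the minus strand for *Cacna1b*, and chr1:154444874-154444900 on the minus strand for *Cacna1e*. Those of the L-type genes lie at chr6:118656115-118656141 on the minus strand for *Cacna1c*, chr14:30100699-30100725 on the minus strand for *Cacna1d* and chr1:136097483-136097509 on the plus strand for *Cacna1s*. Those of the T-type genes lie at chr11:94426462-94426488 on the minus strand for *Cacna1g*, chr17:25383499-25383525 on the minus strand for *Cacna1h* and chr15:80376792-80376818 on the plus strand for *Cacna1i*. The member with the highest level, *Cacna1e*, spans chr1:154390806-154884785 and has a longest coding transcript of 14921 bases. The shortest transcript used was that of *Cacna1s*, at 6251 bases. Exons of *Cacna1a*, *Cacna1d*, *Cacna1h* and *Cacna1s* overlap those of *Gm16183*, *Chdh*, *Tpsg1* and *Gm37759*. These overlaps are those of GENCODE M21, while counts were made on RefSeq genes without reads shared between genes. The library kit did not mark strand, so reads in stretches that also overlap in RefSeq can be missing for both genes of a pair.

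Kept cells held 500672 to 1545100 counts, with a median of 780484, and each mouse gave 12 to 45 of them. The median depth was 791471 counts in *Aldh1a7*-positive and 758133 in *Aldh1a7*-negative cells, and 810187 in *Neurod6*-positive and 757772 in *Neurod6*-negative cells. The label of dopamine neuron held for most cells by *Th*, since 181 of the 209 were *Th*-rich, while the 28 *Th*-poor cells had *Slc6a3*, the dopamine transporter gene, at a median of 345 CPM. At least 1 GABA neuron marker reached 10 counts in 23.4% of cells and at least 1 oligodendrocyte marker in 32.1%. Cells of 1 mouse are not replicates, so every test below compared sums of cells over mice.

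*Cacna1e* was the alpha-1 gene with the highest level in the tdTomato-positive cells, and *Cacna1b* was second. In the summed cells of each mouse, *Cacna1e* ranged from 168 CPM in mouse 1 to 442 CPM in mouse 6, with a median of 317 CPM. *Cacna1b* ranged from 67.4 CPM in mouse 3 to 126 CPM in mouse 1, with a median of 94.7 CPM. Mouse 1 thus had the lowest level of the former and the highest of the latter. Compared between genes per kb of transcript, the level was 21.6 ± 5.93 CPM per kb for *Cacna1e* and 9.94 ± 2.16 CPM per kb for *Cacna1b* (mean ± SD, n = 8 mice). *Cacna1e* was above *Cacna1b* in 7 of 8 mice on this scale, the exception being mouse 1. The R-type gene made up 49.2% and the N-type gene 22.6% of the per-kb total over all members.

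The L-type, P/Q-type and highest T-type genes lay lower and close together. Per kb, *Cacna1d* was at 2.76 ± 1.85, *Cacna1c* at 2.76 ± 1.17, *Cacna1g* at 2.55 ± 1.28 and *Cacna1a* at 2.44 ± 1.10 CPM (mean ± SD, n = 8 mice). No order could be read among these 4: *Cacna1d* was above *Cacna1c* in 3 of 8 mice, *Cacna1c* above *Cacna1g* in 5 and *Cacna1g* above *Cacna1a* in 4. *Cacna1b* was above *Cacna1d* in 8 of 8 mice, although their ranges over mice overlapped. The 2 L-type genes *Cacna1c* and *Cacna1d*, with the little *Cacna1s* there was, made up 13.0% of the per-kb total, the T-type genes 9.65% and the P/Q-type gene 5.56%.

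The mice were not alike for these genes. *Cacna1d* was at 61.5 CPM in mouse 8 and between 9.90 and 26.9 CPM in the other 7 mice. *Cacna1c* was at 2.71 CPM in mouse 4, which had 12 cells, and between 29.3 and 49.4 CPM in the other 7. *Cacna1g* ranged from 4.62 CPM in mouse 1 to 41.0 CPM in mouse 6, with a median of 19.2 CPM. *Cacna1a* ranged from 10.4 CPM in mouse 8 to 38.9 CPM in mouse 5, with a median of 17.9 CPM. Thus a single mouse stood apart for *Cacna1c* and for *Cacna1d*, and a different mouse each time.

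The remaining 3 members were low. *Cacna1h* was at 1.17 ± 0.566 CPM per kb and was below *Cacna1a* in 7 of 8 mice. *Cacna1i*, at 0.522 ± 0.395 CPM per kb, was below *Cacna1h* in all 8 mice. In CPM, *Cacna1h* ranged from 1.31 to 16.2 with a median of 10.1, and *Cacna1i* from 0 to 10.5 with a median of 5.39. *Cacna1s* reached 9.32 CPM in mouse 2 and 0.0521 CPM in mouse 8, and no count of it was found in the other 6 mice. All neighbours in the order had overlapping ranges over mice on the per-kb scale.

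**Figure D1:**
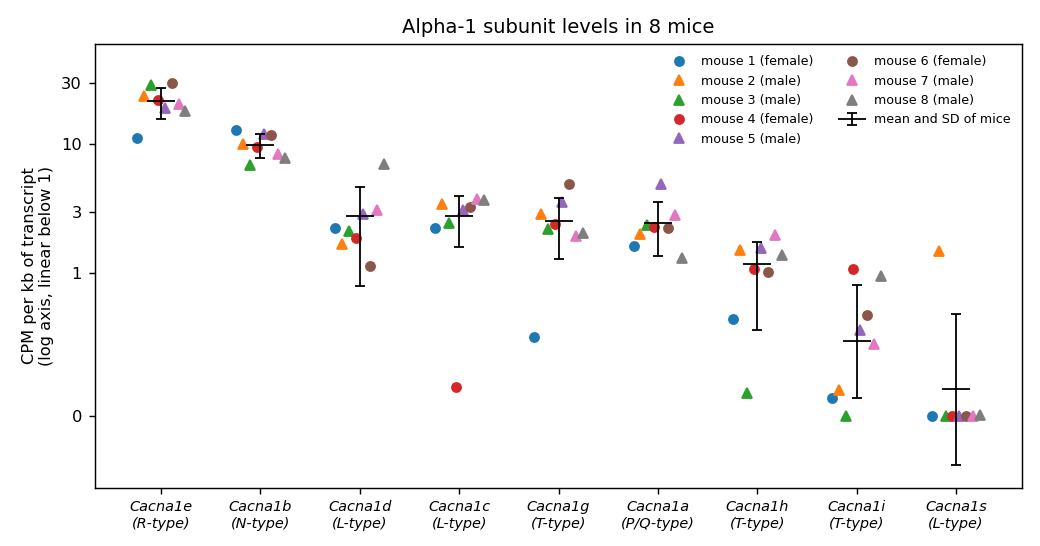
Level of each alpha-1 gene in the summed cells of each mouse, in CPM per kb of transcript on an axis that is logarithmic above 1 and linear below; circles are female and triangles male mice, and bars give the mean and SD of 8 mice. *Cacna1e* (21.6 ± 5.93) and *Cacna1b* (9.94 ± 2.16) lie above the rest, and mouse 4 for *Cacna1c* and mouse 8 for *Cacna1d* lie away from the other mice.

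Cell by cell, the members ranged from genes found in most cells to genes found in few, with several in between. *Cacna1e* had 10 or more counts in 199 of 209 cells, or 95.2% (exact 95% binomial interval 91.4 to 97.7%), and *Cacna1b* in 83.7% (78.0 to 88.5%). *Cacna1a* reached 10 counts in 46.4% of cells (39.5 to 53.4%) but had at least 1 count in 95.2%, so that it was present at low counts in nearly all. The intervals cover counting error only, and the reads carried no molecular identifiers. *Cacna1c* reached 10 counts in 44.0% of cells (37.2 to 51.0%), *Cacna1g* in 34.4% (28.0 to 41.3%) and *Cacna1d* in 34.0% (27.6 to 40.8%). Unlike *Cacna1a*, these 3 had no count at all in a sizeable share of cells, with at least 1 count in 68.4%, 67.5% and 71.3%. *Cacna1h* reached 10 counts in 14.4% of cells (9.90 to 19.9%) and *Cacna1i* in 5.74% (3.00 to 9.81%).

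Along the same order of genes, the counts were spread less and less evenly over cells. The 21 cells with the most counts of a gene held 25.8% of all *Cacna1e* counts and 30.8% of *Cacna1b* counts. They held 43.1% for *Cacna1a*, 48.7% for *Cacna1c*, 59.9% for *Cacna1g* and 61.4% for *Cacna1d*. For *Cacna1h* they held 84.9% and for *Cacna1i* 99.4%. Between single cells, *Cacna1e* ran from 0 to 1274 CPM with a median of 320 CPM, and *Cacna1b* from 0 to 658 CPM with a median of 78.9 CPM. *Cacna1c* had a median of 7.41 CPM and a highest cell at 404 CPM, and *Cacna1d* a median of 4.04 CPM and a highest cell at 317 CPM.

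A cell had a median of 4 of the 9 members at 10 or more counts, with a range of 0 to 6. All of *Cacna1a*, *Cacna1b* and *Cacna1e* reached this level in 83 cells (39.7%), and none of these 3 did in 7 cells. The L-type genes were found together in 34 cells (16.3%), *Cacna1c* without *Cacna1d* in 58, *Cacna1d* without *Cacna1c* in 37, and neither in 80. At least 1 T-type gene was found in 100 cells (47.8%), of which 14 had a second one and none had all 3. The levels of the members were only weakly related over the 209 cells, the highest Spearman rho being 0.203, for *Cacna1a* with *Cacna1g*; the cells share libraries of similar depth, and rho between a member and total counts ranged from -0.0947 to 0.0778.

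The classes defined by *Aldh1a7*, *Neurod6* and *Th* differed in the shares of cells in which members were detected, which is given here as a description of cells and not as a test, since cells of 1 mouse are not independent. *Cacna1e* and *Cacna1b* were the members detected most often in all 5 classes. *Cacna1e* reached 10 counts in 55 of 56 *Aldh1a7*-only, 31 of 31 *Neurod6*-only and 73 of 76 *Th*-rich cells with neither marker, and in 22 of 28 *Th*-poor cells. At least 1 L-type gene reached 10 counts in 74.2% of *Neurod6*-only cells, 60.7% of *Aldh1a7*-only cells, 65.8% of *Th*-rich cells with neither marker and 35.7% of *Th*-poor cells. *Cacna1h* was found in 1 of 56 *Aldh1a7*-only cells, 5 of 18 cells with both markers, 7 of 31 *Neurod6*-only cells and 12 of 76 *Th*-rich cells with neither. After each cell was thinned to 500000 counts, the share with *Cacna1h* was 1.79% in the *Aldh1a7*-only class, 11.1% in the class with both markers and 19.4% in the *Neurod6*-only class.

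*Cacna1i*, the T-type gene for Cav3.3, was unevenly distributed over the classes. Of the 12 cells with 10 or more counts, 8 were *Th*-poor, 3 were *Th*-rich with neither marker, 1 was *Neurod6*-only, and none was *Aldh1a7*-positive. The 0 of 74 *Aldh1a7*-positive cells allow a share of up to 4.05% of cells with 10 counts by a limit of 3 cells, and of up to 4.86% by the exact 95% binomial interval, both for counting error only. The 28 *Th*-poor cells held 59.7% of its counts. In summed cells, *Cacna1i* was at 2.39 to 62.7 CPM, median 25.5 CPM, in the *Th*-poor cells of the 5 mice that had at least 3 of them, and at 0 to 9.96 CPM, median 0.523 CPM, in the *Th*-rich cells of 8 mice. These ranges overlapped. In *Th*-poor and *Th*-rich cells alike, *Cacna1e* kept a high level, at 136 to 534 CPM in the former and 186 to 453 CPM in the latter.

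**Figure D2:**
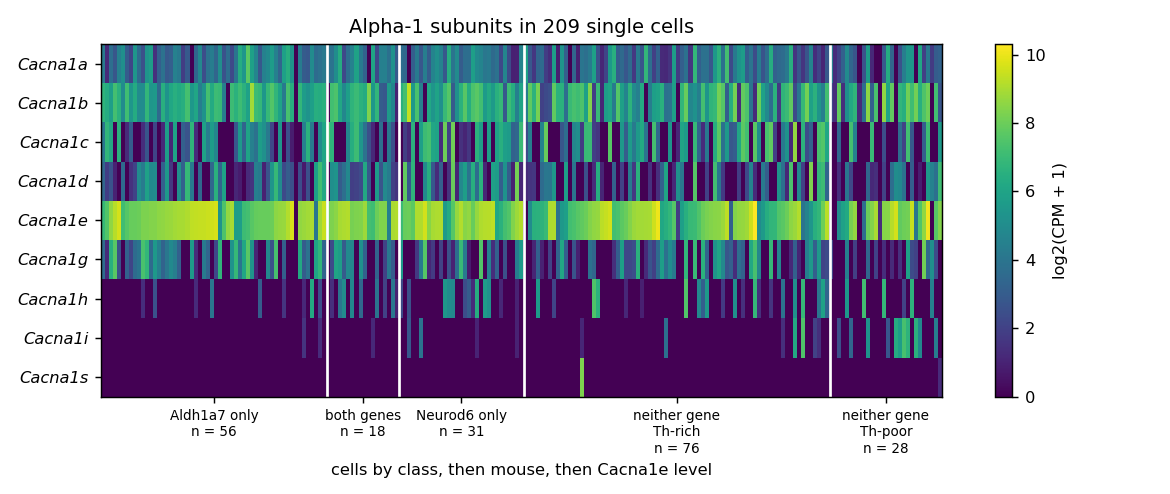
Level of each alpha-1 gene (rows) in each of 209 cells (columns), as log2(CPM + 1) in colour; cells are ordered by class, then mouse, then *Cacna1e* level, and white lines divide the 5 classes. *Cacna1e* and *Cacna1b* fill most columns, *Cacna1i* reaches 10 counts in 12 cells, 8 of them *Th*-poor, and *Cacna1s* reaches it in 1 cell.

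To ask whether channel expression differs with the marker *Aldh1a7*, the cells of each class were summed per mouse in those 7 mice that had 3 or more cells in both classes, which gave 74 positive and 117 negative cells. No alpha-1 gene passed the test between *Aldh1a7*-positive and *Aldh1a7*-negative cells. Of the 9 members, 7 had enough counts to be tested, and 0 of 7 had an adjusted p under 0.05 in edgeR's quasi-likelihood test, where 0.407% of all 12781 genes tested did. None of the 7 had an unadjusted p under 0.05 either, against 11% of all genes, and DESeq2 also called 0 (2.7% of all genes). The ranges of the mice overlapped for all 7, and they were separate for 0.649% of all genes.

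*Cacna1e*, the leading R-type gene, was at 294, 371 and 443 CPM (lowest, median and highest mouse) in *Aldh1a7*-positive cells and at 225, 311 and 467 CPM in *Aldh1a7*-negative cells. It was higher in the positive cells in 5 of 7 mice, but the classes overlapped, and the fitted log2 fold change was 0.26 (SE 0.185, 95% interval -0.13 to 0.65; edgeR adjusted p = 0.661). *Cacna1b* was at 50.3, 71.2 and 130 CPM in positive cells and 54.1, 101 and 136 CPM in negative cells. It was higher in positive cells in 2 of 7 mice, with a log2 fold change of -0.23 (interval -0.72 to 0.26; edgeR adjusted p = 0.787). For these 2 genes the intervals were the narrowest among the members, and they correspond to 0.915- to 1.57-fold for *Cacna1e* and 0.608- to 1.19-fold for *Cacna1b*.

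The L-type genes were lower in *Aldh1a7*-positive cells in most mice, without passing the test. *Cacna1c* was at 0, 19.9 and 52.5 CPM in positive cells and at 3.90, 48.2 and 61.3 CPM in negative cells. It was lower in positive cells in 6 of 7 mice, and the log2 fold change was -0.91 (SE 0.683, interval -2.35 to 0.53; edgeR adjusted p = 0.687). It was -0.080 within lane 1 and -1.51 within lane 2. *Cacna1d* was at 2.36, 15.4 and 42.0 CPM in positive and 12.6, 16.4 and 69.8 CPM in negative cells, and was lower in positive cells in 6 of 7 mice. Its log2 fold change was -0.47 (SE 0.516, interval -1.56 to 0.62; edgeR adjusted p = 0.811). The medians of *Cacna1d* lay close together, and mouse 8 set the highest value in negative cells.

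For the P/Q-type gene *Cacna1a*, the levels were 8.66, 17.3 and 45.4 CPM in positive and 7.72, 20.5 and 32.9 CPM in negative cells, with a log2 fold change of 0.23 (interval -0.62 to 1.08; edgeR adjusted p = 0.890). Among T-type genes, *Cacna1g* was at 2.79, 27.8 and 45.6 CPM in positive and 12.3, 13.9 and 47.2 CPM in negative cells. It was higher in positive cells in 5 of 7 mice, and the log2 fold change was 0.53 (SE 0.481, interval -0.49 to 1.55; edgeR adjusted p = 0.754). *Cacna1h* was at 0, 2.06 and 19.8 CPM in positive and 0.154, 14.7 and 24.1 CPM in negative cells. The median of *Cacna1h* was the lower one in positive cells, the log2 fold change was -1.45, and its interval of -3.46 to 0.56 was the widest among the 7 (edgeR adjusted p = 0.627). Leaving out 1 mouse moved it to between -2.57 (without mouse 7) and -1.10 (without mouse 5). Over the other settings it ran from -0.43 with limma to -4.43 without double-positive cells (edgeR adjusted p = 0.0822). The latter setting was chosen after seeing the data, and limma averaged log2(CPM + 1) over cells, which is another scale than summed counts.

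*Cacna1i* did not pass the filter on low counts in this comparison. It had 5 counts in all *Aldh1a7*-positive cells of the 7 mice. Its level was 0, 0 and 0.787 CPM in positive and 0, 9.13 and 15.1 CPM in negative cells. It was lower in positive cells in 6 of 7 mice, and mouse 3 had no count in either class. Where an alternative setting let it into the test, the log2 fold change was -5.62 with no filter on low counts (edgeR adjusted p = 0.112) and -5.86 with mouse as a block (edgeR adjusted p = 0.0805). Over the 8 alternatives that tested it, the edgeR adjusted p ran from 0.0329 to 0.212 and was under 0.05 in 2, with cells of at least 100000 counts (-5.61, edgeR adjusted p = 0.0468) and without mouse 3 (-5.53, edgeR adjusted p = 0.0329). It entered these tests only through the negative class, where it is high, so they do not support a difference on their own, and mouse 3 was the one with no count. The *Th*-poor cells, which held most of its counts, were all *Aldh1a7*-negative. *Cacna1s* had 273 counts in negative cells and none in positive cells, 272 of them in 1 cell.

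The markers of the classes were read in the same sums. *Slc6a3* was at 4621 ± 946 CPM in *Aldh1a7*-positive and 2120 ± 823 CPM in *Aldh1a7*-negative cells (mean ± SD, n = 7 mice; log2 fold change 1.27, edgeR adjusted p = 0.0334). *Aldh1a1* was at 6349 ± 1553 against 1076 ± 616 CPM, with a log2 fold change of 2.71 and an edgeR adjusted p of 0.0987. The 5 oligodendrocyte markers summed to 0 to 50.2 CPM in positive and 34.0 to 5262 CPM in negative cells, with 1 of them at 0 throughout. The 3 GABA neuron markers summed to 0.787 to 255 CPM in positive and 2.20 to 1331 CPM in negative cells. The part of these cells and transcripts in the alpha-1 levels was not tested. From the sums alone, fewer cells that express a gene and less RNA of it per cell cannot be told apart. Cell by cell, *Cacna1c* reached 10 counts in 40.5% of *Aldh1a7*-positive and 45.9% of *Aldh1a7*-negative cells, given as a description with no test.

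**Figure D3:**
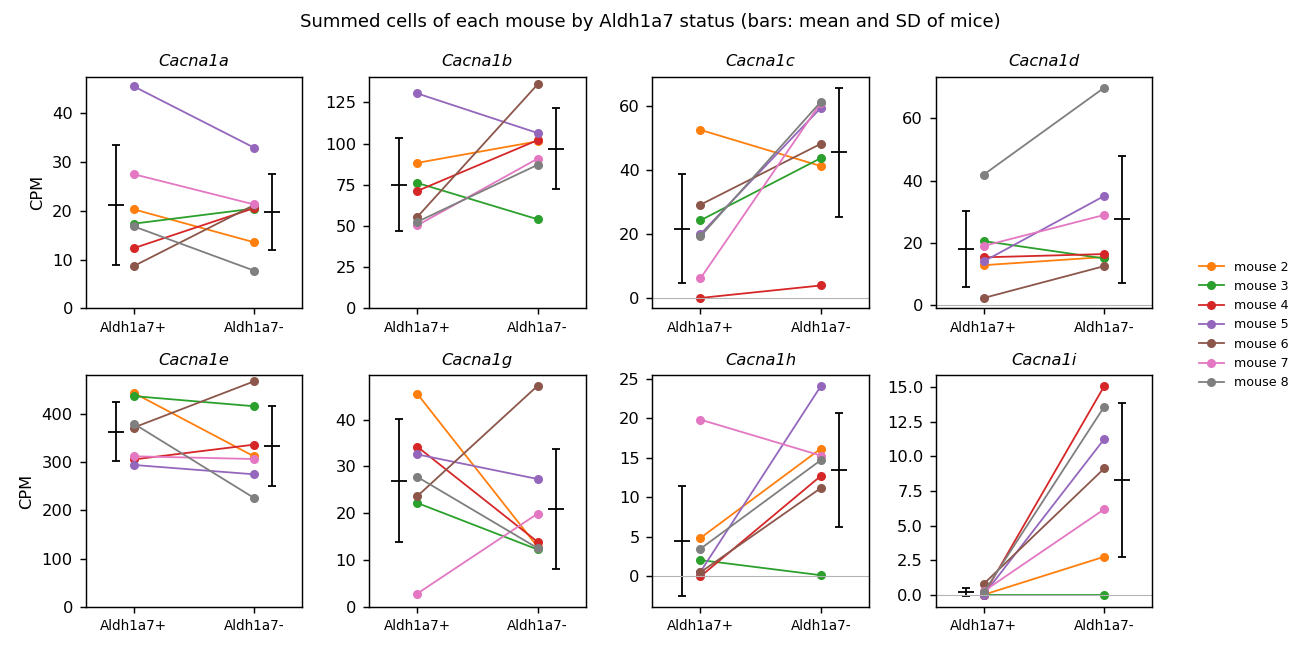
Level of 8 alpha-1 genes in the summed *Aldh1a7*-positive and *Aldh1a7*-negative cells of each of 7 mice, in CPM on linear axes; each line joins the 2 classes of 1 mouse, and bars give the mean and SD of mice. *Cacna1c* and *Cacna1d* are lower in the positive cells of 6 of 7 mice, *Cacna1e* is high in both classes, and *Cacna1i* is at or near 0 in the positive cells of every mouse.

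The same question was asked of *Neurod6*, in those 6 mice that had 3 or more cells in both classes (47 positive and 133 negative cells). Again no alpha-1 gene passed: 0 of 8 members tested had an adjusted p under 0.05, where 0.0555% of 12605 genes tested did. At an unadjusted p under 0.05 there was 1 member, *Cacna1i*, against 6.2% of all genes, and DESeq2 called 0 members (1.06% of all genes). The ranges of the mice overlapped for every member, and were separate for 0.793% of all genes.

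*Cacna1d* had the largest positive difference by *Neurod6* status. It was at 23.4, 37.3 and 76.1 CPM in *Neurod6*-positive cells (lowest, median and highest of 6 mice) and at 7.17, 18.3 and 80.9 CPM in *Neurod6*-negative cells. It was higher in positive cells in 5 of 6 mice, and mouse 8, the exception, had the highest value of the negative cells. The log2 fold change was 0.76 (SE 0.560, interval -0.44 to 1.95; edgeR adjusted p = 0.965). It was 0.32 without mouse 1 and 1.54 without mouse 8, the lowest and highest values on leaving out 1 mouse. *Cacna1c*, the other L-type gene, was at 1.3, 47.3 and 87.0 CPM in positive and 23.3, 37.8 and 68.3 CPM in negative cells. It was higher in 3 mice and lower in 3, with a log2 fold change of 0.20 (interval -1.09 to 1.49; edgeR adjusted p = 0.998).

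*Cacna1b* was at 58.5, 83.2 and 310 CPM in *Neurod6*-positive and 65.6, 90.2 and 114 CPM in *Neurod6*-negative cells. The 310 CPM came from mouse 1, which had 3 positive cells, among them the highest single cell for *Cacna1b*, at 658 CPM. The log2 fold change was 0.51 (interval -0.27 to 1.29; edgeR adjusted p = 0.956) with that mouse and -0.01 without it. *Cacna1e* was at 210, 350 and 449 CPM in positive and 159, 270 and 431 CPM in negative cells, with a log2 fold change of 0.30 (interval -0.29 to 0.88; edgeR adjusted p = 0.984). Its level was higher in positive cells in 4 of 6 mice, within overlapping ranges. *Cacna1a* (0.13), *Cacna1g* (-0.03) and *Cacna1h* (-0.22) had log2 fold changes that were each within 1 SE of 0.

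*Cacna1i* had few counts in *Neurod6*-positive cells. It was at 0, 0.178 and 2.17 CPM in positive and 0, 4.57 and 19.2 CPM in negative cells, with 18 and 514 counts. Mice 2, 5, 7 and 8 had the lower level in positive cells, mouse 1 the higher, and mouse 3 had no count. The log2 fold change was -3.44 (SE 1.371, interval -6.37 to -0.51; edgeR unadjusted p = 0.0246, adjusted p = 0.715). It passed the filter on low counts mostly through the negative class, where it is high, so this fold change and p do not support a difference on their own. Leaving out 1 mouse moved the fold change to between -4.44 (without mouse 1) and -2.42 (without mouse 8). The *Th*-poor cells were all *Neurod6*-negative as well. Of the class markers, *Grp*, a neuropeptide gene, was at 262 ± 126 CPM in positive and 32.3 ± 19.9 CPM in negative cells (mean ± SD, n = 6 mice; edgeR adjusted p = 0.0862). The GABA neuron markers summed to 2.47 to 333 CPM in positive and 27.8 to 1694 CPM in negative cells, the 5 astrocyte markers to 0 to 3.61 and 0.186 to 676 CPM, and the oligodendrocyte markers to 18.6 to 131 and 19.3 to 2511 CPM. The part of these transcripts in the alpha-1 levels was not tested.

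**Figure D4:**
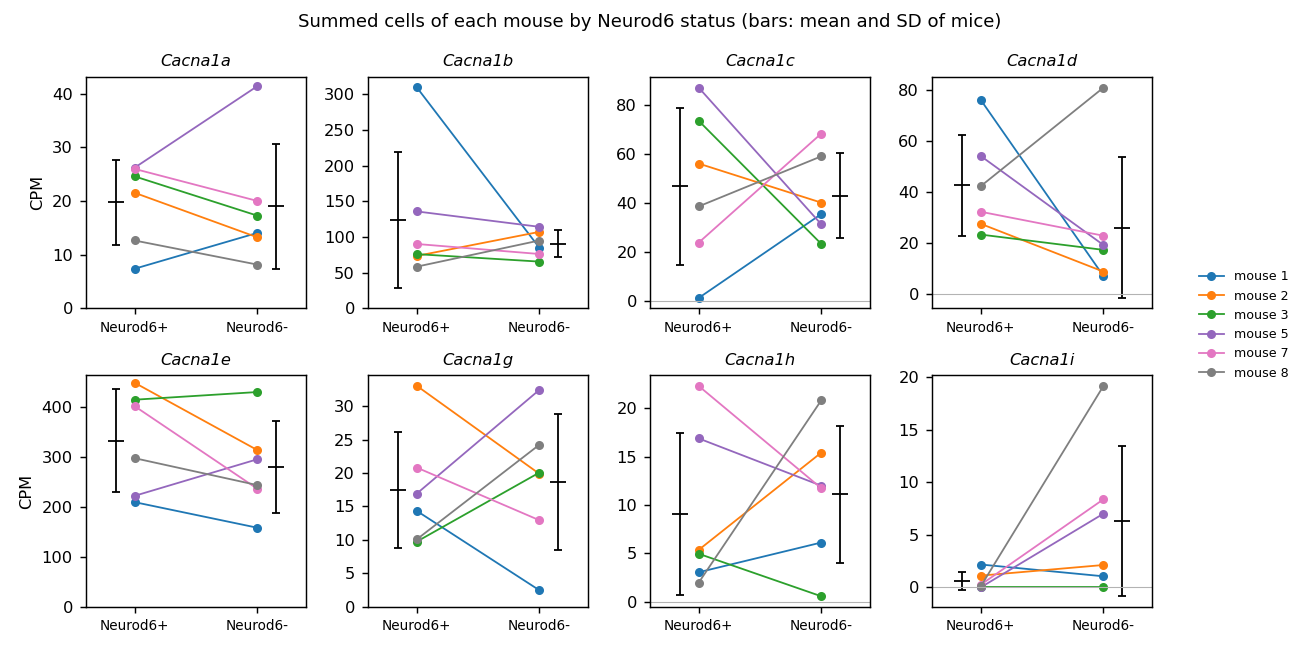
Level of 8 alpha-1 genes in the summed *Neurod6*-positive and *Neurod6*-negative cells of each of 6 mice, in CPM on linear axes; each line joins the 2 classes of 1 mouse, and bars give the mean and SD of mice. *Cacna1d* is higher in positive cells in 5 of 6 mice with mouse 8 opposite, and the 310 CPM of mouse 1 stands apart for *Cacna1b*.

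Because the negative classes above hold most of each other's cells, *Aldh1a7*-only and *Neurod6*-only cells were also set against each other, in the 4 mice where both classes had 3 or more cells (47 and 20 cells). Of 6 members tested, 0 passed, against 0.11% of 10934 genes. DESeq2 called 0 as well, against 1.69% of all genes. At an unadjusted p under 0.05 there was 1 member, *Cacna1c*, against 6.5% of all genes, and no member had separate ranges, as 5.3% of all genes did.

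*Cacna1c* was lower in *Aldh1a7*-only cells in all 4 mice, although the ranges overlapped. In mice 2, 3, 5 and 8 it was at 60.3, 17.2, 21.1 and 34.6 CPM in *Aldh1a7*-only cells and at 71.8, 76.5, 108 and 54.3 CPM in *Neurod6*-only cells. The log2 fold change was -1.19 (SE 0.499, interval -2.29 to -0.08; edgeR unadjusted p = 0.0371, adjusted p = 0.725). *Cacna1g* was higher in *Aldh1a7*-only cells in the same 4 mice, at 72.8, 22.7, 35.1 and 53.5 CPM against 46.9, 1.66, 21.3 and 11.1 CPM. Its log2 fold change was 1.25 (SE 0.826, interval -0.57 to 3.07, edgeR adjusted p = 0.903). Leaving out 1 mouse gave 0.96 to 1.75, and the other settings gave 0.0063 to 1.80. The ranges of the mice overlapped for this gene too.

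*Cacna1b* was also higher in *Aldh1a7*-only cells in 4 of 4 mice, at 97.7, 72.0, 116 and 87.7 CPM against 61.4, 52.2, 88.5 and 75.2 CPM. Its log2 fold change was 0.46 (SE 0.315, interval -0.23 to 1.16; edgeR adjusted p = 0.905). *Cacna1d* was lower in *Aldh1a7*-only cells in 3 of 4 mice, with a log2 fold change of -0.59 (interval -2.40 to 1.22; edgeR adjusted p = 0.960). It was -0.17 without mouse 5 and -1.75 without mouse 8, the extremes on leaving out 1 mouse. *Cacna1a* (0.21) and *Cacna1e* (0.17) were higher in 2 of 4 mice and lower in 2. In these small classes the intervals of all members tested but *Cacna1e* include a 2-fold change in at least 1 direction. *Sox6*, a transcription factor gene, separated the classes, at 83.4 ± 35.0 CPM in *Aldh1a7*-only and 0.193 ± 0.236 CPM in *Neurod6*-only cells (mean ± SD, n = 4 mice; edgeR adjusted p = 0.00929). The 5 oligodendrocyte markers summed to 1.86 to 6.43 CPM in *Aldh1a7*-only and 19.5 to 72.4 CPM in *Neurod6*-only cells, without overlap, and their part in the alpha-1 levels was not tested.

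**Figure D5:**
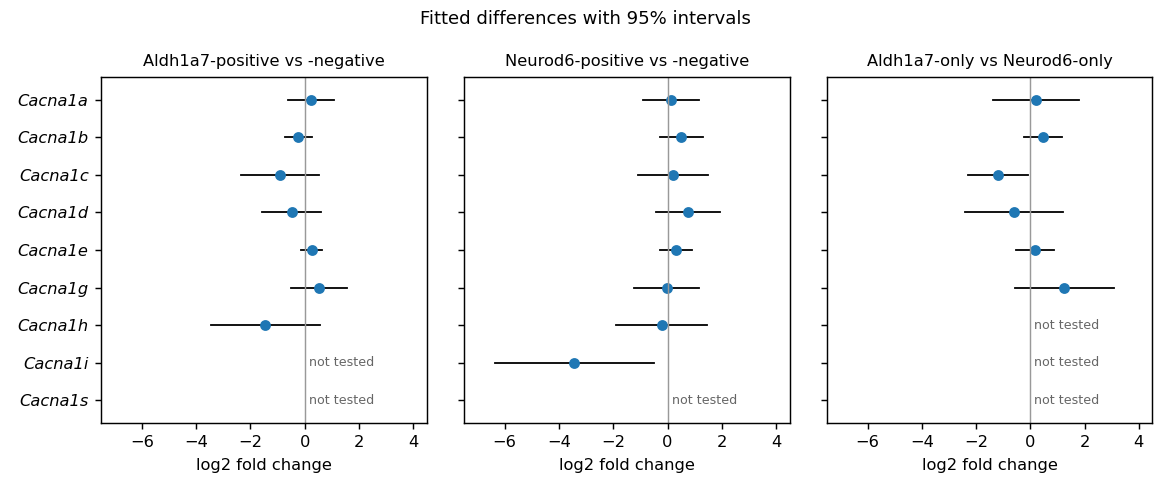
Fitted log2 fold change of each alpha-1 gene with its 95% interval in the 3 comparisons of cell classes, from edgeR; members without an interval did not pass the filter on low counts. No member passed an adjusted p of 0.05, and the intervals of *Cacna1i* by *Neurod6* status (-6.37 to -0.51) and of *Cacna1c* between the exclusive classes (-2.29 to -0.08) do not reach 0.

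Male and female mice were compared over all kept cells of each mouse. Of 8 members tested, 0 passed (0.0322% of 15528 genes did), none had an unadjusted p under 0.05 (8.12% of all genes), and DESeq2 called 0 (1.27% of all genes). *Cacna1d* was at 14.6, 18.4, 25.0, 26.9 and 61.5 CPM in the 5 males and at 9.90, 16.1 and 19.6 CPM in the 3 females. The male values reached higher but overlapped the female ones, with a log2 fold change of 0.97 (SE 0.510, interval -0.17 to 2.11, edgeR adjusted p = 0.668). Leaving out 1 mouse gave 0.51 to 1.16. The level of *Cacna1e* was 329 ± 64.0 CPM in male and 312 ± 138 CPM in female mice (mean ± SD), with a log2 fold change of 0.10 (interval -0.61 to 0.82). All females were run on 1 of the 2 C1 machines, so that sex and machine are partly confounded. The females were of postnatal day 25, 33 and 36 and the males of day 24 to 28. *Th*-poor cells were 7 of 18, 4 of 12 and 4 of 17 in the females and 1 to 5 of 21 to 45 in the males. The part of age and of *Th*-poor cells in the alpha-1 levels was not tested. The difference by *Aldh1a7* status was tested for a change with sex in 2 females and 5 males: 0 of 8 members passed, against 0.0543% of 16573 genes, none had an unadjusted p under 0.05, and the member with the largest interaction was *Cacna1h* (log2 4.07, SE 2.18, edgeR adjusted p = 0.542).

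Alpha-1 subunits work with auxiliary subunits, the alpha-2-delta proteins that carry them to the membrane and the intracellular beta subunits. The list used here also held the *Cacng* genes, named as gamma subunits, whose place in calcium channels was not tested. Of the 16 listed genes, 13 had a count and 11 were tested by *Aldh1a7* status. None passed, and 2 had an unadjusted p under 0.05 (11% of all genes did). Their median log2 fold change was -0.67 beside 0.0014 for all genes tested, with 8 of the 11 lower in *Aldh1a7*-positive cells. The *Cacng* genes tested were all lower, at -1.74 to -0.67. The alpha-2-delta and beta genes went both ways, at -1.32 to 0.57. *Cacna2d1*, which encodes alpha-2-delta-1 and was chosen after its values were seen, was at 88.2 ± 45.7 CPM in positive and 243 ± 133 CPM in negative cells (mean ± SD, n = 7 mice). It was lower in positive cells in 6 of 7 mice, with a log2 fold change of -1.32 and an edgeR adjusted p of 0.149, and it was called by DESeq2 (adjusted p = 0.0195). Of 19 channel regulators, such as the RGK proteins, Stac proteins, calmodulins and RIM proteins, 10 were tested and none passed, 2 having an unadjusted p under 0.05, again beside 11% of all genes (median log2 fold change -0.12).

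Of 22 genes of calcium stores and calcium extrusion, 17 were tested by *Aldh1a7* status, 0 were higher and 1 was lower (0.141% and 0.266% of all genes), and 5 had an unadjusted p under 0.05 (11% of all genes), with a median log2 fold change of 0.09. That gene was *Ryr2*, a ryanodine receptor that releases calcium from the endoplasmic reticulum. It was at 0 to 7.18 CPM in *Aldh1a7*-positive and at 26.7 to 131 CPM in *Aldh1a7*-negative cells of the 7 mice, without overlap. The log2 fold change was -4.80 (SE 0.789; edgeR adjusted p = 0.0112). It passed the filter on low counts through the negative class, where it is high, so the call does not support a difference on its own, and the size of the fold rests on few counts in the positive class. With no filter on low counts the log2 fold change was -4.82 (edgeR adjusted p = 0.0141). Leaving out 1 mouse gave -5.50 to -4.44, and without mouse 2 the value was -4.85 with an edgeR adjusted p of 0.0637. Within lane 1 and lane 2 the log2 fold change was -4.30 and -5.00 with adjusted p of 0.691 and 0.143. The smallest difference was -1.56 with positivity from 1 count (edgeR adjusted p = 0.712), and the call was also lost with at least 5 cells per class (-4.25, edgeR adjusted p = 0.0563) and on machine FRODO alone (-4.10, edgeR adjusted p = 0.698). Over cells, *Ryr2* reached 10 counts in 4 of 56 *Aldh1a7*-only, 0 of 18 double-positive, 4 of 31 *Neurod6*-only, 34 of 76 *Th*-rich and 11 of 28 *Th*-poor cells with neither marker. With mouse as a block, a setting whose filter also let 16573 genes through in place of 12781, *Micu3*, a regulator of the mitochondrial calcium uniporter, passed as well (log2 fold change 0.60, edgeR adjusted p = 0.0430). None of these 3 lists had a gene past the threshold by *Neurod6* status or between *Aldh1a7*-only and *Neurod6*-only cells in edgeR's test. Of all genes, 0.0555% and 0.11% did. At an unadjusted p under 0.05 there were 6.2% of all genes by *Neurod6* status and 6.5% in the direct comparison. By *Neurod6* status, 1 of 11 auxiliary, 1 of 12 regulator and 3 of 17 store or extrusion genes reached it. In the direct comparison it was 1 of 10, 1 of 11 and 3 of 17. DESeq2 called 3 listed genes in the direct comparison, *Cacng3*, *Ryr2* and *Atp2b2*, beside 1.69% of all genes, and limma called 1 by *Neurod6* status, *Cacna2d3*, beside 0.444% of all genes. These genes were named after their values were seen.

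For the 2 members that reached 10 counts in more cells than not, the genes most like them over the 209 cells were listed among 5060 genes detected as often, by the Spearman correlation of log2(CPM + 1). Those most like *Cacna1e* were *Scn2b*, a sodium channel beta subunit (rho 0.334), *Prkaa2*, a catalytic subunit of AMP-activated kinase (0.328), and *Drp2*, a dystrophin-related gene (0.327). Those most like *Cacna1b* were *Zfp9* (0.317), *Aak1* (0.309) and *N28178* (0.295). The median over all genes was 0.0526 for *Cacna1e* and 0.0423 for *Cacna1b*. The cells come from 8 mice and share runs and lanes, so these values are a description only.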

How the data were processed

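Per the labels and the study's methods, the authors sorted single cells, made SMARTer and Nextera XT libraries on C1 chips, trimmed reads with Trimmomatic 0.3.2, aligned them with TopHat2 2.1.1 to GRCm38.3 and counted RefSeq genes with featureCounts 1.5.0-p3, without chimeric fragments or reads shared between genes. The deposited values are raw counts per gene and cell. Groups, sexes and mice came from the labels; the series' own text gives other numbers of males and females than the labels, which were used. The 175 cells under 500000 counts were left out, and no doublet caller was run, since the study excluded wells seen to hold doublets. The 95 spike-in and transgene entries, 0.00505% of counts, stayed out of the sums tested. They counted in the cut at 500000 and in CPM per cell and per whole mouse. *Cacng6*, *Cacng7* and *Cacng8* were at 0 with duplicate entries, which is no sign of absence.

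Counts were summed per mouse and class (at least 3 cells each) and tested with edgeR 4.0.16 (TMM, filterByExpr, quasi-likelihood, two-sided, Benjamini-Hochberg over all genes); SE and intervals came from its F statistic. Alternatives used DESeq2 1.42.0, other filters, thresholds, lanes and machines, each mouse left out, and mouse as a block. A further one used limma 3.58.1 on means over cells of log2(CPM + 1), which is another scale than that of summed counts. Both classes came from the same animals, which pairs them; the correlation of their deviations within a mouse was 0.045 to 0.183 for *Aldh1a7*, 0.054 to 0.275 for *Neurod6* and 0.035 to 0.129 for the direct comparison. On simulated data, edgeR recovered 45% of 4-fold and 83% of 16-fold changes for *Aldh1a7*, 43% and 78% for *Neurod6*, 19% and 64% for the direct comparison and 37% and 61% for sex. Levels per kb used the longest coding transcript of GENCODE M21. Named genes were the 9 members, markers of the classes, up to 8 genes of each list past the threshold that changed alike in all mice with at least 10 CPM in the higher class, and the 3 genes most like a member; *Cacna2d1*, *Cacna2d3*, *Cacng3*, *Atp2b2* and *Micu3* fall outside this rule and were named after their values were seen. The members and lists were chosen with earlier results of these data known.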

Additional observations from a re-analysis of the deposited data

Results flagged for a closer look

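In groups of 4 to 7 mice, the highest or lowest mouse stood apart from the rest by Dixon's criterion in 16 of the 59 groups examined, where chance gives about 5%; the groups share cells and mice, so these are not separate events. Among L-type genes, *Cacna1d* was at 69.8 CPM in the *Aldh1a7*-negative, 80.9 CPM in the *Neurod6*-negative and 61.5 CPM in all cells of mouse 8, while the other mice of those groups reached at most 35.1, 22.9 and 26.9 CPM. *Cacna1c* was at 3.90 CPM in *Aldh1a7*-negative cells of mouse 4 and at 41.2 to 61.3 CPM in the other mice. *Cacna1s* was at 14.1, 13.5 and 9.32 CPM in the *Aldh1a7*-negative, *Neurod6*-negative and male groups of mouse 2, all from the same cell.

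Among the P/Q- and N-type genes, *Cacna1a* was at 41.4 CPM in *Neurod6*-negative and 48.9 CPM in *Aldh1a7*-only cells of mouse 5, above at most 20.0 and 15.7 CPM in the other mice. *Cacna1b* was at 310 CPM in the *Neurod6*-positive cells of mouse 1, which include a single cell at 658 CPM, and at 58.5 to 136 CPM in the others. Among T-type genes, *Cacna1g* was at 47.2 CPM in *Aldh1a7*-negative cells of mouse 6, and *Cacna1h* at 19.8 CPM in *Aldh1a7*-positive cells of mouse 7 and 21.3 CPM in *Neurod6*-only cells of mouse 5. *Cacna1i* stood apart at very low levels, with 0.787 CPM in *Aldh1a7*-positive cells of mouse 6, 0.402 CPM in *Aldh1a7*-only cells of mouse 8 and 2.95 CPM in *Neurod6*-only cells of mouse 2. The first rests on 3 counts and the second on 1 count, and with the other *Aldh1a7*-only mice at 0 any single count would have stood apart.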

How the results depend on the processing

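Of 548 recomputed differences of the tested alpha-1 genes, 494 kept their sign and stayed above the threshold, 54 changed sign and none passed it. *Cacna1i*, which was not tested by *Aldh1a7* status in the main setting, made 1 member called with cells of at least 100000 counts (129 of 13274 genes called) and 0 to 1 when a mouse was left out (1 without mouse 3, with 87 of 12550 genes called). Over all alternatives, the genes called among all genes numbered 0 to 338 by *Aldh1a7* status (52 in the main setting; 338 with DESeq2), 0 to 127 by *Neurod6* status (7 in the main setting), 0 to 182 in the direct comparison (12 in the main setting) and 0 to 190 by sex (5 in the main setting). With mouse as a replicate block, which also let 15883 and 12846 genes through the filter in place of 12605 and 10934, the count by *Neurod6* status was 1 and in the direct comparison 0; apart from *Micu3* it changed no other call among the members and lists. The direct comparison with at least 5 cells per class, or on machine SMEAGOL alone, was not run since fewer than 2 mice remained. The causes of the changes were not tested.

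By *Aldh1a7* status, the auxiliary and calcium-handling lists held 1 gene past the threshold in the main setting (52 of 12781 genes called), 2 each with DESeq2 (338 of 12533), with mouse as a replicate block (44 of 16573) and with limma (184 of 12781), 3 with cells of at least 100000 counts (129 of 13274), and 0 with positivity from 1 count, at least 5 cells per class, lane 1, lane 2 or machine FRODO alone; leaving out a mouse gave 0 to 1 (0 without mouse 2). By *Neurod6* status limma called 1, and in the direct comparison DESeq2 called 3.

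Changed signs, as log2 fold changes by *Aldh1a7* status, were as follows. *Cacna1a* was at -0.11 with cells of at least 100000 counts, -0.054 in lane 2 and -0.041 on SMEAGOL. *Cacna1b* was at 0.15 with positivity from 1 count, 0.17 in lane 1 and 0.18 on FRODO. *Cacna1d* was at 0.21 with positivity from 1 count, 0.18 with limma and 0.22 in lane 1.

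By *Neurod6* status, *Cacna1a* was at -0.040 and -0.13 with positivity from 1 and from 50 counts, -0.14 with cells of at least 100000 counts and -0.012 in lane 2. *Cacna1b* was at -0.013 with at least 5 cells per class and -0.013 to 0.70 leaving out a mouse. *Cacna1c* was at -0.22 with the replicate block, -0.027 in lane 2, -0.76 on SMEAGOL and -0.15 to 0.52 leaving out a mouse. *Cacna1g* was at 0.0044 with DESeq2, 0.0040 with RLE size factors, 0.11 with the replicate block, 0.18 and 0.44 with positivity from 1 and from 50 counts, 0.15 with thinned cells, 0.44 in lane 1, 0.99 on SMEAGOL, 0.25 without double-positive cells (chosen after seeing the data) and -0.29 to 0.18 leaving out a mouse. *Cacna1h* was at 0.53 with positivity from 1 count, 0.42 with limma and -0.69 to 0.28 leaving out a mouse, and *Cacna1i* at 0.036 in lane 1.

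In the direct comparison, *Cacna1a* was at -0.33 in lane 1 and -0.074 to 0.44 leaving out a mouse. *Cacna1b* was at -0.61 and -0.11 with positivity from 1 and from 50 counts, and *Cacna1d* at 0.21 with limma. *Cacna1e* was at -0.42 with positivity from 1 count, -0.074 with thinned cells, -0.073 with cells of at least 100000 counts, -0.14 with limma and -0.059 in lane 1. By sex, *Cacna1i* was at 1.64 in *Th*-rich cells, and leaving out a mouse gave ranges that crossed 0 for *Cacna1e*, *Cacna1g* and *Cacna1i*, at -0.21 to 0.45, -0.54 to 0.78 and -1.03 to 0.10.

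Shares of cells depended on the count that marks detection. From 1 count they were 95.2% for *Cacna1a*, 95.7% for *Cacna1b*, 68.4% for *Cacna1c*, 71.3% for *Cacna1d*, 67.5% for *Cacna1g*, 28.2% for *Cacna1h* and 12.0% for *Cacna1i*. From 50 counts they were 8.13% for *Cacna1a*, 55.5% for *Cacna1b*, 22.5% for *Cacna1c*, 11.5% for *Cacna1d*, 86.6% for *Cacna1e*, 12.4% for *Cacna1g*, 5.26% for *Cacna1h* and 2.87% for *Cacna1i*. Thinned to 500000 counts per cell, *Cacna1a* was at 34.4%, *Cacna1d* at 27.3% and *Cacna1g* at 26.3%. In *Th*-rich cells *Cacna1e* was at 97.8% and *Cacna1i* at 2.21%. Per kb of coding sequence in place of transcript (chosen after seeing the data), *Cacna1e* made up 60.4% and *Cacna1b* 17.7% of the total.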

Other observations

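The 12 cells with 10 or more counts of *Cacna1i* came from 6 mice and were compared, after their values were seen, with the other 197 cells for genes of transmitter type. All 12 had 10 or more counts of *Slc17a6*, the vesicular glutamate transporter gene of subcortical neurons, where 113 of all 209 cells did. The level of *Slc17a6* in them ranged from 141 to 1293 CPM, and its median in the other cells was 12.3 CPM. *Slc6a3* was lower, with a median of 553 CPM against 3109 CPM, and so was *Th*, with a median of 110 CPM against 6514 CPM. However, 8 of the 12 were *Th*-poor, a class set by low *Th*, and *Th*-poor cells leaned the same way in *Slc17a6* and *Slc6a3*. Their sums in 5 mice had *Slc17a6* at 139 to 1484 CPM, median 536 CPM. The *Th*-rich sums of 8 mice had it at 39.6 to 313 CPM, median 146 CPM, and the ranges overlapped. The 28 *Th*-poor cells had medians of 345 CPM for *Slc6a3* and 21.6 CPM for *Th*, the low *Th* being fixed by the class. Of the 12, 0 had 10 counts of *Gad1*, which encodes a GABA-synthesizing enzyme, where 15 of all 209 cells did (7.18%). For *Gad2* it was 2 of the 12 and 42 of all cells (20.1%), and for *Slc32a1*, the vesicular GABA transporter gene, 4 of the 12 and 18 of all cells (8.61%). Among the alpha-1 genes, all 12 also had *Cacna1e*, 10 had *Cacna1b*, and 4 each had *Cacna1a*, *Cacna1c*, *Cacna1d* and *Cacna1g*. These cells were chosen by a measured value, and no test was made.

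Of the 273 counts of *Cacna1s*, 272 (320 CPM) lay in a single *Th*-rich cell of mouse 2 with *Th* at 7334 CPM and *Slc6a3* at 2745 CPM. The remaining count lay in a *Th*-poor cell of mouse 8.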
